A study of Homo sapiens with 12 samples.

Results

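NFKBIZ and the C/EBP genes CEBPB, CEBPD, CEBPA and CEBPG, which encode transcription factors and a cofactor of inflammation, were followed in RNA from precipitates of the tagged RNA-binding protein Arid5a and from control precipitates. They were taken by Ensembl identifier (ENSG00000144802, ENSG00000172216, ENSG00000221869, ENSG00000245848 and ENSG00000153879), which found 5 of the 60708 features in the deposited tables. All cells were HK2, an established line of human kidney epithelium, carrying 10 µg per transfection of a plasmid for FLAG-tagged human Arid5a. The groups were FLAG precipitates of cells given IL-17 at 200 ng/mL for 3 h, FLAG precipitates of cells in medium, mouse IgG1 precipitates with IL-17, and mouse IgG1 precipitates in medium, with 3 libraries each. No untransfected cells and no input RNA were analysed here, so the IgG libraries, from cells that carry the plasmid too, were the only background. The labels name 1 line and do not say whether replicates were separate cultures, so p-values measure the spread between these libraries, which may be technical.

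IL-17 receptors signal through Act1 and TRAF adaptors to NF-kappaB and to C/EBP factors, and epithelial cells, kidney tubule cells among them, answer with chemokines and antimicrobial proteins. NFKBIZ encodes IkappaB-zeta, a nuclear member of the IkappaB family that binds NF-kappaB at DNA and is needed for a delayed set of inflammatory genes. CEBPB, CEBPD, CEBPA and CEBPG encode leucine zipper proteins that pair with each other: C/EBP-beta and C/EBP-delta are induced in inflammation, C/EBP-alpha acts in differentiation, and C/EBP-gamma lacks a strong activation domain. Arid5a is known to bind inflammatory transcripts and to prolong their life.

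Total estimated counts were 13653406 to 17723136 in FLAG IL-17, 2402395 to 7563477 in FLAG medium, 5365495 to 15837845 in IgG IL-17 and 746911 to 6118339 in IgG medium. Depth was higher with IL-17 than in medium, without overlap in FLAG and with overlap in IgG, and the part of depth in any IL-17 difference was not tested. Libraries known from earlier results to stand apart in content or depth were IgG IL-17 replicate 1, IgG medium replicates 1 and 2 and FLAG medium replicate 1. They were named from those results and not by a cut applied here. IgG medium replicate 3 was kept with 14419 features above 0, while IgG medium replicate 2, with 31714, was among the 4. Values without these 4 are given where they alter a call, and such calls rest on this choice. The identifiers were not paired with symbols beyond these 5 genes, so neither kidney epithelial markers nor the transfected gene were checked.

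NFKBIZ gave by far the most reads of the 5. Its estimated counts were 7723, 4268 and 3544 in replicates 1 to 3 of FLAG IL-17, against 446, 2001 and 982 in FLAG medium, and 1845, 3362 and 3346 in IgG IL-17, against 172, 1363 and 466 in IgG medium. Ranked by CPM (counts scaled to the library total), NFKBIZ stood between place 220 and place 1444 among all features of a library, and by TPM, which divides by length, between place 475 and place 2047. CEBPB, CEBPD and CEBPG ranked between place 3372 and place 21541 by CPM and between place 3162 and place 22711 by TPM. CEBPA stood at place 5693 or lower by CPM and had 0 counts in 3 libraries. On TPM, NFKBIZ was 3.49 to 3.96 times the summed level of the 4 C/EBP genes in FLAG IL-17, 3.29 to 9.87 times in FLAG medium, 3.56 to 4.66 times in IgG IL-17 and 1.40 to 8.40 times in IgG medium. NFKBIZ RNA was therefore abundant also in IgG precipitates and also without IL-17.

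NFKBIZ lies on chromosome 3 at 101827990 to 101861022 (RefSeq, GRCh38.p14), where its locus overlaps the gene NXPE3. RefSeq lists 2 starts for it, and the 250 bases before each are shown because its read total per gene does not separate transcripts from these starts. Capitals mark matches to GGGA and TTCC with any 2 bases between them, a spelling of the NF-kappaB site, searched on both strands.

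NFKBIZ upstream start, chr3:101827740-101827989, plus strand: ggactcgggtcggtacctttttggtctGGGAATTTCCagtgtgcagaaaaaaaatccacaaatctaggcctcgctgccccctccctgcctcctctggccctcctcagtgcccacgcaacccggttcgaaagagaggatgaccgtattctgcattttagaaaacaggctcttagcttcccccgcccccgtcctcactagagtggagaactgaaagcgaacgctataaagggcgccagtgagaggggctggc
NFKBIZ downstream start, chr3:101849264-101849513, plus strand: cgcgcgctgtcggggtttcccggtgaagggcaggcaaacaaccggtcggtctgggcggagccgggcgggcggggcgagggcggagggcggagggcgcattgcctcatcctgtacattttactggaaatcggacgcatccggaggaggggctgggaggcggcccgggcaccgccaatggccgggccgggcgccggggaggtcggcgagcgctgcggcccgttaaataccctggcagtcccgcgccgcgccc

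The upstream window held 1 match, which begins 223 bases before the start, and the downstream window held none. Of all 35116 RefSeq windows of 250 bases, 1.4% held this spelling. Other spellings of the NF-kappaB site, which either NFKBIZ window may hold, were not searched. A spelling of the C/EBP site, TTGCNNAA, was in neither window and in 9.05% of all windows. Neither spelling was in the other windows analysed here, those of CEBPA (1 start), CEBPG (2 starts) or CEBPB (2 starts). CEBPG lies on chromosome 19 at 33373709 to 33382686, CEBPA on the same chromosome at 33299934 to 33302534, and CEBPB on chromosome 20 at 50190583 to 50192690, where it overlaps the antisense gene CEBPB-AS1. The low-input cDNA kit named in the labels does not mark strand, so reads of CEBPB and CEBPB-AS1 cannot be told apart where these genes overlap. How reads were divided between NFKBIZ and NXPE3, where those overlap, was not checked.

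The first question was how IL-17 changed these RNAs in FLAG precipitates. NFKBIZ, scaled by TMM (a composition factor for each library), was at 426, 372 and 327 CPM with IL-17, against 124, 198 and 161 CPM in medium. All 3 IL-17 libraries lay above all 3 medium libraries. The mean was 375 ± 49.4 CPM with IL-17 and 161 ± 37.3 CPM in medium (SD, n = 3 each). The log2 fold change was 1.22 ± 0.54 (SE; 95% interval 0.11 to 2.33). It missed the threshold of an adjusted p of 0.05 over all features tested (edgeR's adjusted p = 0.457; unadjusted p = 0.0326). Leaving out single libraries gave 0.73 to 1.296, the lowest without FLAG IL-17 replicate 1 (0.74 without FLAG medium replicate 3). Each such fit was filtered and scaled anew, and NFKBIZ was 0.83 without IgG IL-17 replicate 2, a library outside this comparison.

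CEBPD, the gene of C/EBP-delta, had the largest fitted change of the 5 in FLAG precipitates. It was at 34.0, 25.9 and 24.3 CPM with IL-17, against 1.66, 11.0 and 7.72 CPM in medium, again with no overlap. FLAG medium replicate 1 held only 6 CEBPD counts and set the lowest value. The log2 fold change was 2.02 ± 0.74 (SE; 95% interval 0.49 to 3.55; edgeR's adjusted p = 0.457; unadjusted p = 0.0115). Without FLAG medium replicate 1 it was 1.57, and no library left out alone took it below that.

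CEBPB, the gene of C/EBP-beta, was at 26.8, 25.6 and 28.2 CPM in FLAG IL-17, against 12.8, 19.4 and 15.6 CPM in FLAG medium. The groups did not overlap, and the log2 fold change was 0.75 ± 0.61 (SE; edgeR's adjusted p = 0.563). Leaving out FLAG medium replicate 3 gave 0.25, and leaving out FLAG IL-17 replicate 3 gave 0.35. The value was also 0.36 without IgG IL-17 replicate 2 or 3, libraries outside this comparison. Such drops therefore cannot be laid to the library named alone. CEBPG, the gene of C/EBP-gamma, was at 29.2, 32.3 and 26.5 CPM with IL-17 and 2.77, 26.8 and 28.3 CPM in medium. Its groups overlapped, and 2 of the 3 medium libraries were at the level of the IL-17 libraries. The log2 fold change of CEBPG was 0.59 ± 0.67 (SE; edgeR's adjusted p = 0.665), and 0.081 without FLAG medium replicate 1, where CEBPG had 10 counts.

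CEBPA, the gene of C/EBP-alpha, had the fewest reads of the 5 in most libraries. Its estimated counts were 40.6, 43 and 30 in FLAG IL-17, against 0, 45 and 9 in FLAG medium, and 37.9, 88 and 45 in IgG IL-17, against 7, 0 and 0 in IgG medium. A count of 0 allows up to 1.25 CPM (before TMM scaling) in FLAG medium replicate 1, 0.490 in IgG medium replicate 2 and 0.789 in IgG medium replicate 3, from 3 counts and counting error only. No fold change is given for CEBPA, and its adjusted p by edgeR lay between 0.859 and 1 over all 6 comparisons.

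In all, edgeR called 0 of the 5 genes in FLAG precipitates with IL-17, where it called 0.225% of all features. At an unadjusted p under 0.05, 2 of 5 were higher (NFKBIZ and CEBPD), where 3.05% of all features were; 0 of 5 were lower, where 7.86% of all features were. DESeq2 also called 0 of 5, where it called 5.35% of the features it gave an adjusted p, and limma on log2(TPM + 1) called 0, where it called 0.025% of all features. At an unadjusted p under 0.05 DESeq2 had 1 of 5 higher (CEBPD, adjusted p = 0.0889), where 2.48% of features were. Groups did not overlap for 3 of 5, all higher, against 17.3% of all features higher and 11% lower. The median log2 fold change over the 5 genes was 0.75, and over all tested features it was -0.29. A bulk lysate does not separate more cells with a transcript from more of it per cell, and without input RNA neither can be told apart from a change in how much of it was precipitated. Without the 4 libraries that stand apart, edgeR called NFKBIZ (log2 fold change 1.06, adjusted p = 0.0328) and CEBPD (1.58, adjusted p = 0.0179), where it called 2.26% of all 28872 features tested in that fit. Over all alternatives the adjusted p ran from 0.0328 to 0.788 for NFKBIZ and from 0.0179 to 0.788 for CEBPD.

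**Figure D1:**
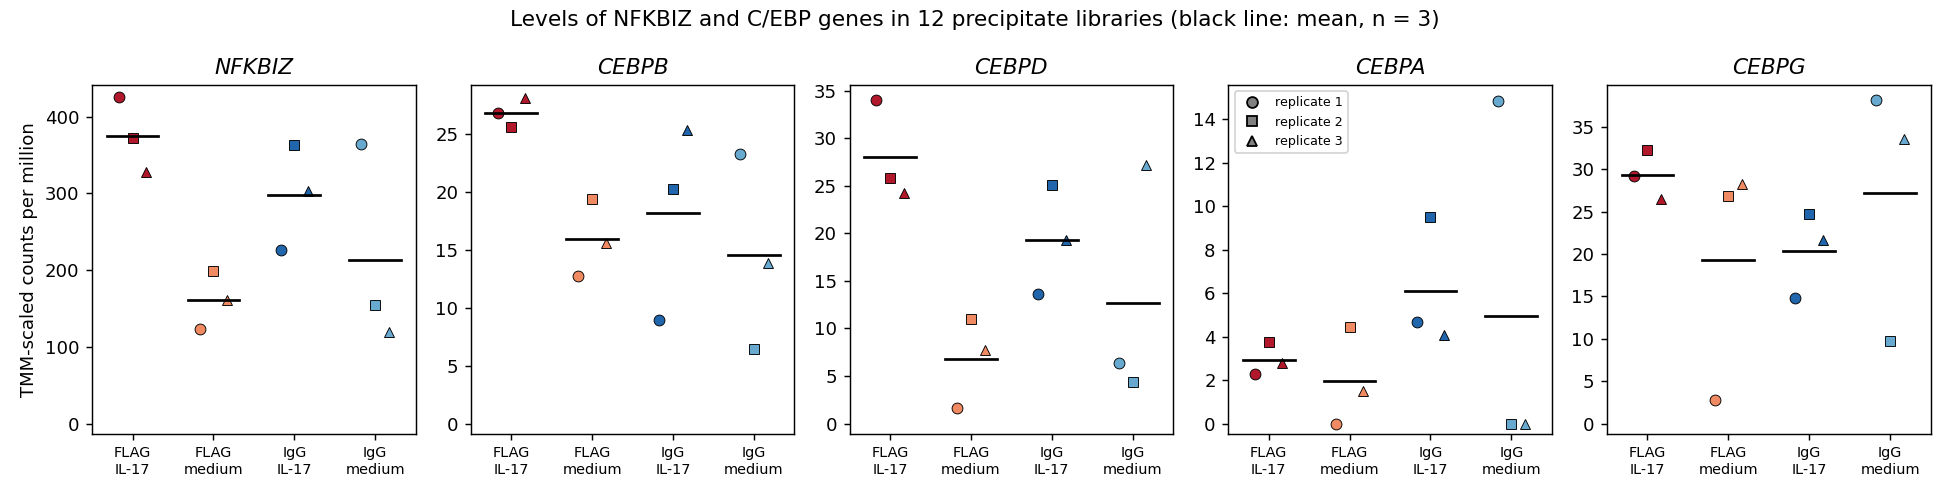
Levels of the 5 genes in each library, in TMM-scaled CPM (vertical axis, linear, a separate scale for each gene). Points are libraries, with a marker for each replicate number, and black lines are means of 3. NFKBIZ, CEBPB and CEBPD in FLAG IL-17 lie above all FLAG medium libraries, while the IgG groups overlap for all 5 genes.

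In IgG precipitates the fitted changes with IL-17 were smaller in size for NFKBIZ, CEBPB, CEBPD and CEBPG, and the test of that difference is given with the comparison of antibodies. NFKBIZ was at 227, 364 and 303 CPM with IL-17, against 365, 154 and 119 CPM in medium. IgG medium replicate 1, the shallowest library, was as high as the highest IL-17 library, so the groups overlapped. The log2 fold change was 0.50 ± 0.54 (SE; edgeR's adjusted p = 1). It was 1.09 without that library, but leaving out IgG medium replicate 3 gave 0.17 and leaving out IgG IL-17 replicate 2 gave 0.24.

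CEBPD was at 13.6, 25.1 and 19.3 CPM in IgG IL-17, against 6.36, 4.41 and 27.2 CPM in IgG medium. Here IgG medium replicate 3 was the high library, with 106 CEBPD counts, and the log2 fold change of 0.55 ± 0.73 (SE; edgeR's adjusted p = 1) became 1.84 without it, but 0.23 without IgG medium replicate 1 and 0.20 without IgG medium replicate 2. CEBPB was at 8.97, 20.2 and 25.3 CPM with IL-17 and 23.3, 6.45 and 13.8 CPM in medium, a log2 fold change of 0.43 ± 0.64 (SE; edgeR's adjusted p = 1). CEBPG was at 14.8, 24.7 and 21.6 CPM with IL-17 and 38.2, 9.73 and 33.6 CPM in medium, a log2 fold change of -0.37 ± 0.68 (SE; edgeR's adjusted p = 1). Without single libraries CEBPB ran from 0.077 to 0.80 and CEBPG from -0.72 to -0.13. All of these groups overlapped.

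For the IL-17 effect in IgG, edgeR called 0 of the 5 genes (0.0125% of all features), and 0 were under an unadjusted p of 0.05 by edgeR, where it had 3.79% of all features higher and 1.78% lower. No gene of the 5 was free of overlap, where 9.69% of all features were higher and 1.93% lower without overlap. DESeq2 called 0 (1.78% of the features it gave an adjusted p), and limma on log2(TPM + 1) called 0 (0.0125% of all features). Without the 4 libraries that stand apart, edgeR called NFKBIZ (log2 fold change 1.60, adjusted p = 0.012, and 0.012 to 1 over all alternatives) and CEBPA (adjusted p = 0.0446, and 0.0446 to 1 over all alternatives), but this sets 2 IL-17 libraries against IgG medium replicate 3 alone, which is assumed to vary like the others and holds 0 CEBPA counts. In that fit 5.65% of all features were called, and the median over all features was 2.17, above the value of NFKBIZ.

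Averaged over both antibodies, the log2 fold change with IL-17 was 0.86 ± 0.38 for NFKBIZ (edgeR's adjusted p = 0.444) and 1.29 ± 0.52 for CEBPD (edgeR's adjusted p = 0.411). It was 0.59 ± 0.44 for CEBPB (edgeR's adjusted p = 0.593) and 0.11 ± 0.48 for CEBPG (edgeR's adjusted p = 0.933; all errors SE). None of the 5 was called, where 0.395% of all features were. At an unadjusted p under 0.05, NFKBIZ and CEBPD were higher by edgeR, where 5.5% of all features were higher and 4.99% lower. DESeq2 called 0 of the 5, against 4.25% of the features it gave an adjusted p, and had 1 (CEBPD) higher at an unadjusted p under 0.05, against 4.51% of features. On log2(TPM + 1) limma called 0, against 0.154% of all features. Without the 4 libraries that stand apart, the averaged log2 fold change of NFKBIZ was 1.33, where the median of all features was 0.80. That fit keeps IgG medium replicate 3 as the only IgG medium library. By TMM in the fit of all 12 libraries, it had the lowest NFKBIZ of all, at 119 CPM.

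The direction of the NFKBIZ difference depended on the scale of the values. On TPM as deposited, NFKBIZ was at 25.7, 16.3 and 8.07 in FLAG IL-17, against 25.0, 36.3 and 11.8 in FLAG medium. In IgG it was at 25.2, 13.4 and 9 TPM with IL-17, against 19.1, 29.2 and 11.9 TPM in medium. The mean was thus lower with IL-17 on TPM and higher on every count scale for FLAG, and limma on log2(TPM + 1) gave -0.52 in FLAG (adjusted p = 0.663) and -0.35 in IgG (adjusted p = 0.990). CEBPB and CEBPG also turned negative on TPM in FLAG, at -0.46 and -0.34. CEBPD stayed positive there, at 0.44 (adjusted p = 0.692).

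TPM and counts differ here in what else fills a library. Features with less than 0.1 of the apparent length of NFKBIZ (count over TPM, within a library) held 92.1% to 95.02% of TPM in FLAG IL-17, against 81.5% to 89.2% in FLAG medium. In IgG they held 91.4% to 94.5% with IL-17 and 78.1% to 89.1% in medium. Of the estimated counts they held 13.4% to 22.8% in FLAG IL-17, against 5.04% to 8.18% in FLAG medium, and 11.98% to 21.1% in IgG IL-17 and 4.89% to 12.1% in IgG medium. In the same libraries 1 CPM of NFKBIZ corresponded to 0.0504 ± 0.0095 TPM in FLAG IL-17, against 0.116 ± 0.035 TPM in FLAG medium (SD, n = 3 each). The cut follows the apparent length of NFKBIZ in each library. Relative to CEBPD that length was 1.13 in FLAG medium replicate 1 and 0.993 in IgG medium replicate 1, against 1.63 to 2.12 in the other libraries. The shares in those medium libraries are therefore not like for like with the rest. The part of these short features in the NFKBIZ difference was not tested beyond these values.

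Among the count scales the fitted change in FLAG also moved, with the centre of all features. The log2 fold change of NFKBIZ was 0.63 with library size only, 0.69 with RLE factors and 0.91 with upper-quartile factors, where the median of all features was -0.92, -0.89 and -0.62. Taken from that median, NFKBIZ was 1.51 higher with TMM, 1.55 with library size only, 1.57 with RLE and 1.53 with upper quartile. CEBPD was 2.31, 2.42, 2.55 and 2.37 higher than the median in the same order. Scaling factors move all features nearly alike, so the closeness of these distances was largely fixed in advance. The median itself moved with the features tested. With the filter of 50 counts in 3 libraries it was -0.041, with NFKBIZ at 0.80 and CEBPD at 1.72. With only the FLAG groups fitted it was -0.025, with NFKBIZ at 1.03 and CEBPD at 1.89. Both genes were thus nearer the median there. Groups in FLAG did not overlap for CEBPD with library size only (3.29% of all features were higher without overlap), for NFKBIZ and CEBPD with RLE (8.19%), for NFKBIZ, CEBPB and CEBPD with upper quartile (10.1%), and for none of the 5 on TPM (0.749%). On limma's log2(TPM + 1) scale NFKBIZ was 0.077 below the median and CEBPD 0.88 above it.

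**Figure D2:**
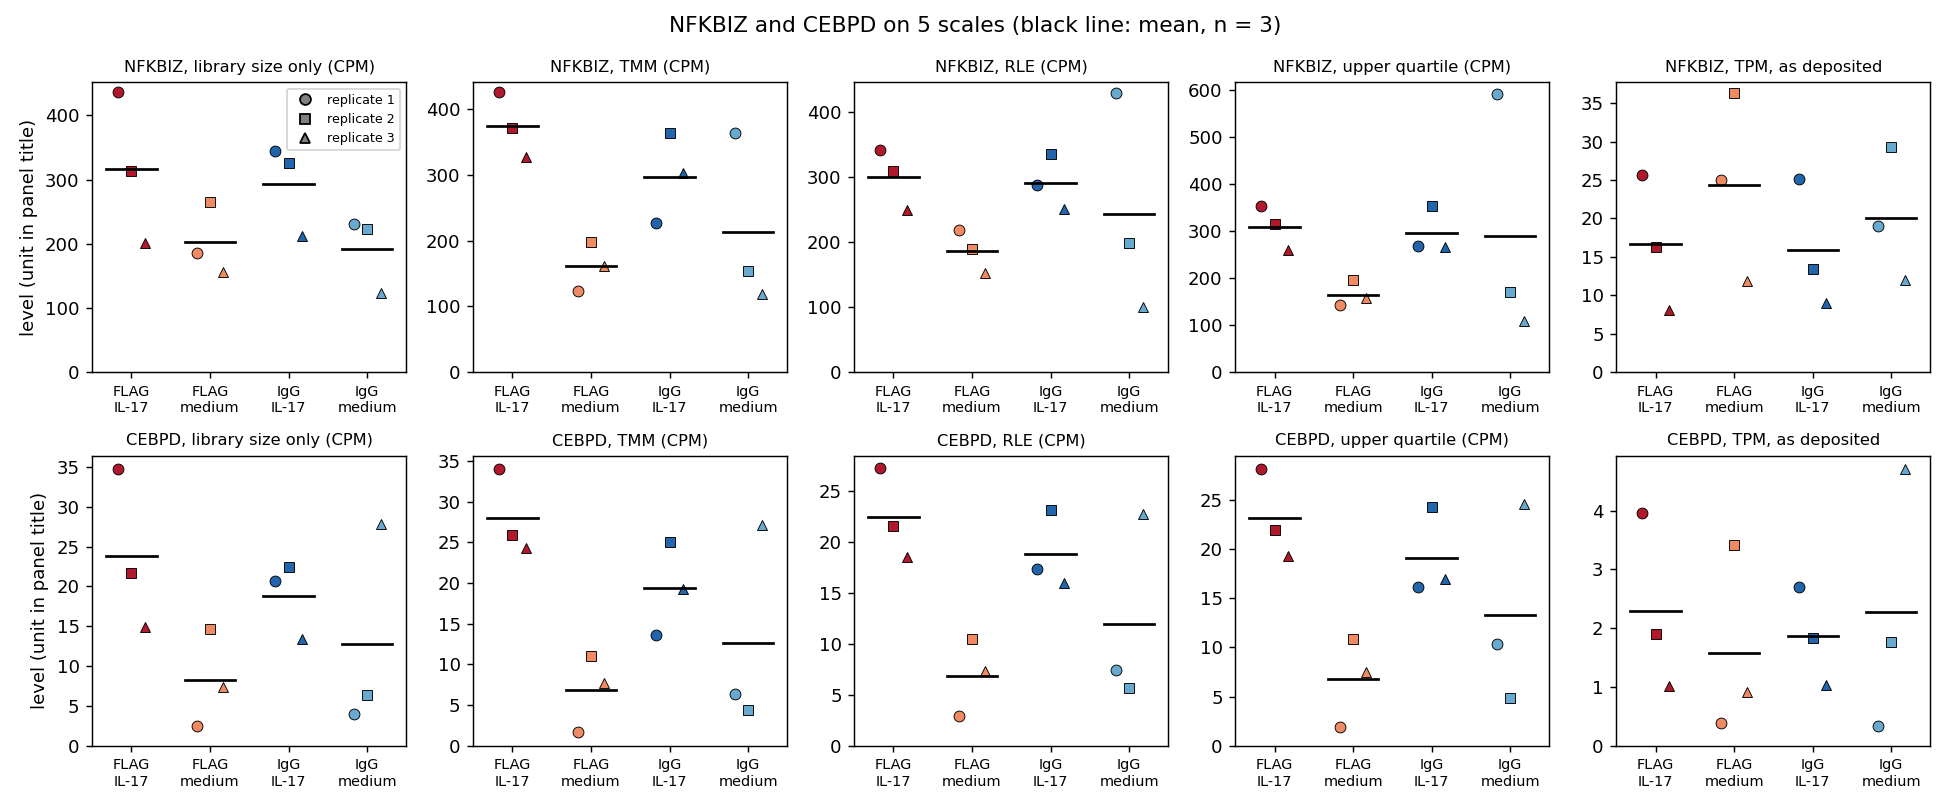
NFKBIZ (upper row) and CEBPD (lower row) in each library on 4 count scales and on TPM (vertical axes, linear, from 0). Points are libraries and black lines are means of 3. CEBPD in FLAG IL-17 lies above FLAG medium on all 4 count scales and overlaps on TPM, and NFKBIZ in FLAG does not overlap on 3 count scales but overlaps with library size only and on TPM.

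Ratios between the genes within a library do not depend on how libraries are scaled. These ratios, and CEBPG and NFKBIZ as denominators, were chosen after the values were seen. CEBPD made up 53.8%, 44.5% and 47.8% of the summed CEBPD and CEBPG counts in FLAG IL-17, against 37.5%, 29.1% and 21.5% in FLAG medium. In IgG the share was 48.1%, 50.4% and 47.1% with IL-17, against 14.3%, 31.2% and 44.7% in medium. With either antibody all IL-17 libraries lay above all medium libraries.

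The IL-17 shares were narrow, at 48.7% ± 4.7 in FLAG and 48.5% ± 1.7 in IgG, and the medium shares were wide, at 29.3% ± 8.0 in FLAG and 30.1% ± 15.3 in IgG (SD, n = 3 each). A pair of medium libraries held few counts: the exact 95% binomial interval was 15.2% to 64.6% in FLAG medium replicate 1 (6 of 16 counts) and 3.05% to 36.3% in IgG medium replicate 1 (3 of 21 counts). The smallest gap, in IgG, was between 47.1% with IL-17 and 44.7% in medium, whose intervals overlap (42.4% to 51.8% and 38.3% to 51.3%). Such intervals cover counting error only. Of all features tested, 0.745% were higher relative to CEBPG with IL-17 without overlap in both antibodies' libraries, 2.74% in FLAG and 7.26% in IgG. CEBPD was 1 of these in both. NFKBIZ, CEBPB and CEBPA relative to CEBPG overlapped with both antibodies, where 16.1% of all features in FLAG and 0.99% in IgG were lower without overlap.

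Relative to NFKBIZ, CEBPD counts were 0.0696 to 0.0798 in FLAG IL-17, against 0.0135 to 0.0555 in FLAG medium, with no overlap. CEBPD relative to NFKBIZ overlapped in IgG, at 0.0602 to 0.0690 with IL-17 and 0.0174 to 0.227 in medium. CEBPB relative to NFKBIZ was lower with IL-17 in FLAG, at 0.0629 to 0.0861 against 0.0967 to 0.103 in medium, and overlapped in IgG. Relative to NFKBIZ in FLAG, 1.73% of all features were higher and 31.5% lower without overlap, so a lower ratio as for CEBPB was more common than a higher one as for CEBPD. In IgG 4.01% of all features were higher and 5.07% lower, and 0.387% were higher with both antibodies.

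**Figure D3:**
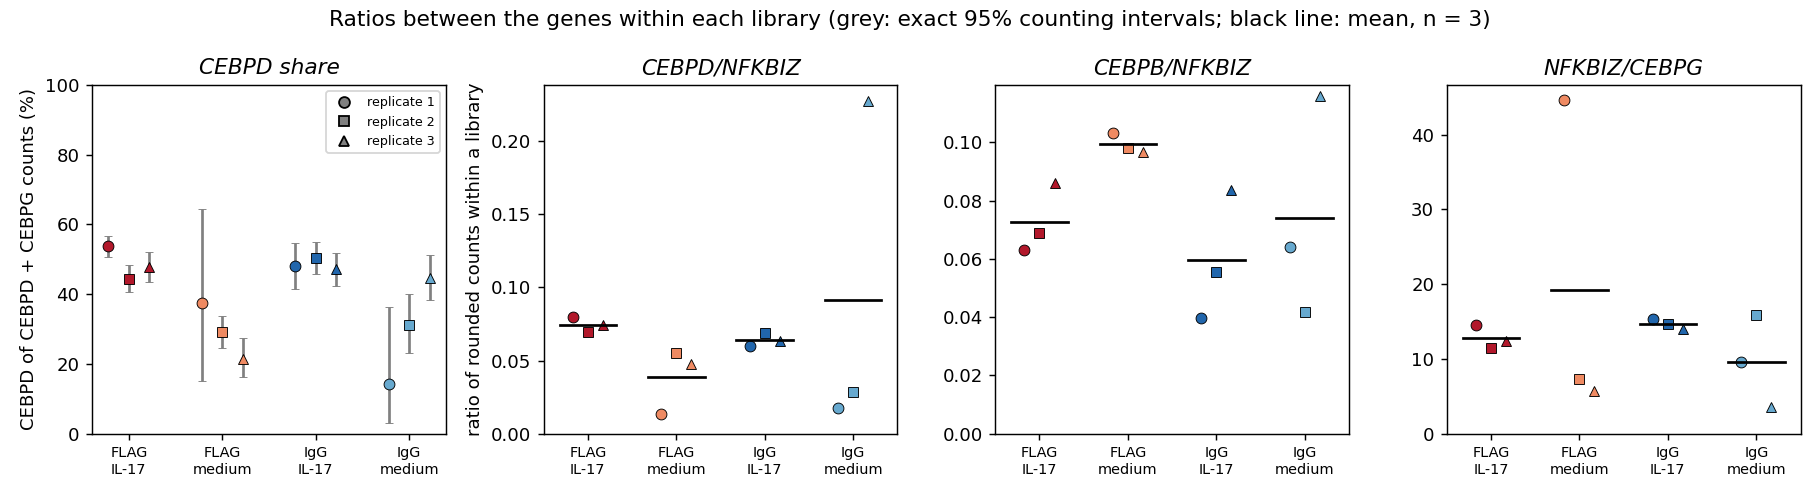
Ratios between the genes within each library. The left panel shows CEBPD as a percentage of CEBPD plus CEBPG counts, with exact 95% counting intervals in grey, and the other panels show ratios of rounded counts (linear axes from 0; black lines are means of 3). The CEBPD share is 44.5% to 53.8% in FLAG IL-17 and 47.1% to 50.4% in IgG IL-17, above all medium libraries of the same antibody.

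The make-up of C/EBP RNA by TPM followed the same order in all 6 IL-17 libraries. CEBPD took 44.9% to 53.8% of the summed TPM of the 4 genes in FLAG IL-17 and 42.0% to 50.2% in IgG IL-17. CEBPB came next, with 27.4% to 33.8% in FLAG IL-17 and 21.3% to 35.9% in IgG IL-17, then CEBPG and CEBPA. By estimated counts, which are not divided by length, CEBPD led only in FLAG IL-17 replicate 1 and IgG IL-17 replicate 2 among the IL-17 libraries. In FLAG IL-17 replicate 2, for example, CEBPG had 371 counts and CEBPD 297. In medium the order by TPM differed between libraries: CEBPB took 74.7% in FLAG medium replicate 1, CEBPG 37.6% in FLAG medium replicate 3 and CEBPD 55.1% in IgG medium replicate 3. CEBPD was also the largest part in IgG medium replicate 2, at 35.6% (CEBPB 33.2%, CEBPG 31.2%). CEBPG was 17.02% to 20.9% in IgG IL-17, against 27.0% to 35.7% in IgG medium, and 17.1% to 20.9% in FLAG IL-17, against 10.3% to 37.6% in FLAG medium.

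**Figure D4:**
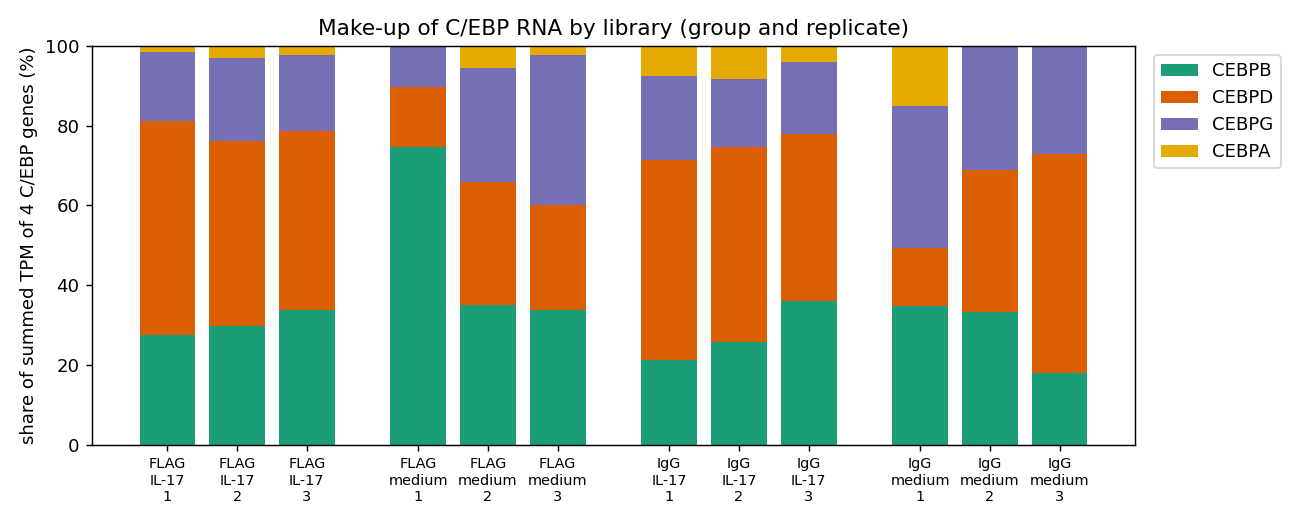
Share of CEBPB, CEBPD, CEBPG and CEBPA in the summed TPM of these 4 genes, in percent, 1 bar per library. CEBPD is the largest part in all 6 IL-17 libraries and in IgG medium replicates 2 and 3, and the medium libraries differ among themselves.

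The next question was whether FLAG precipitates held more of these RNAs than IgG precipitates. With IL-17, the log2 fold change of FLAG over IgG was 0.33 ± 0.53 for NFKBIZ (95% interval -0.76 to 1.43; edgeR's adjusted p = 0.933) and 0.54 ± 0.71 for CEBPD (edgeR's adjusted p = 0.924). It was 0.56 ± 0.61 for CEBPB (edgeR's adjusted p = 0.923) and 0.53 ± 0.66 for CEBPG (edgeR's adjusted p = 0.924; all errors SE). NFKBIZ overlapped between antibodies, at 327 to 426 CPM in FLAG and 227 to 364 CPM in IgG. CEBPB (25.6 to 28.2 CPM in FLAG, 8.97 to 25.3 in IgG) and CEBPG (26.5 to 32.3 CPM in FLAG, 14.8 to 24.7 in IgG) did not overlap and were higher, while CEBPA (2.26 to 3.74 CPM in FLAG, 4.07 to 9.52 in IgG) was lower. Leaving out single libraries gave 0.028 to 0.41 for NFKBIZ and 0.18 to 0.61 for CEBPD, both lowest without FLAG IL-17 replicate 1. It gave 0.24 to 0.63 for CEBPB, lowest without IgG IL-17 replicate 1, and 0.24 to 0.61 for CEBPG, lowest without FLAG IL-17 replicate 2. With library size only (3.58% of all features higher, 11.6% lower) or on TPM (0.341% higher, 6.07% lower) none of the 5 was free of overlap. With RLE factors CEBPB was higher and CEBPA lower without overlap (7.95% of all features higher, 17.6% lower). With upper-quartile factors CEBPA alone was free of overlap, and lower (8.04% of all features higher, 17.3% lower). By TMM 14.6% of all features were higher and 12.3% lower without overlap, beside the 2 and 1 of these 5 genes.

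In medium the fitted values pointed the other way for NFKBIZ, CEBPD and CEBPG. The log2 fold change of FLAG over IgG was -0.39 ± 0.54 for NFKBIZ (95% interval -1.49 to 0.71; edgeR's adjusted p = 1) and -0.93 ± 0.74 for CEBPD (edgeR's adjusted p = 0.949). It was 0.24 ± 0.64 for CEBPB and -0.44 ± 0.68 for CEBPG (edgeR's adjusted p = 1 each; all errors SE). All 5 genes overlapped between antibodies on TMM-scaled values, where 5.07% of all features were higher and 1.11% lower without overlap. With library size only CEBPB alone was higher without overlap, as were 4.85% of all features. Each of these signs turned when a single library was left out. NFKBIZ was 0.21 without IgG medium replicate 1, CEBPD 0.40 without IgG medium replicate 3, CEBPG 0.14 without FLAG medium replicate 1 and CEBPB -0.011 without IgG medium replicate 2. Each such fit was filtered and scaled anew, so the turns cannot be laid to the library named alone. The signs of NFKBIZ and CEBPB also turned on other scales with no library left out, as given further below.

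The test of a change of FLAG over IgG with IL-17 gave 0.72 ± 0.76 for NFKBIZ (edgeR's adjusted p = 0.826) and 1.47 ± 1.03 for CEBPD (edgeR's adjusted p = 0.765), with a 95% interval of -0.64 to 3.58 for CEBPD. It gave 0.32 ± 0.88 for CEBPB (edgeR's adjusted p = 0.933) and 0.96 ± 0.95 for CEBPG (edgeR's adjusted p = 0.819; log2 scale, errors SE). The larger IL-17 effect on CEBPD in FLAG than in IgG was thus within its error, and it was 0.14 without IgG medium replicate 3. In all 3 of these comparisons edgeR called 0 of the 5 genes and 0% of all features, and 0 of the 5 were under an unadjusted p of 0.05 by edgeR. DESeq2 called 0 of the 5, against 0.0386% of the features it gave an adjusted p with IL-17, 0.745% in medium and 0.514% for the change. On log2(TPM + 1) limma called 0 of the 5, against 0.00416%, 0% and 0% of all features. Without the 4 libraries that stand apart edgeR called 0 of the 5, against 0.0173% with IL-17, 4.28% in medium and 2.31% for the change. By edgeR's unadjusted p, 0.566% of all features were higher and 2.25% lower in FLAG than in IgG with IL-17, 4.17% higher and 2.4% lower in medium, and 1.07% higher and 6.28% lower in the test of the change.

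**Figure D5:**
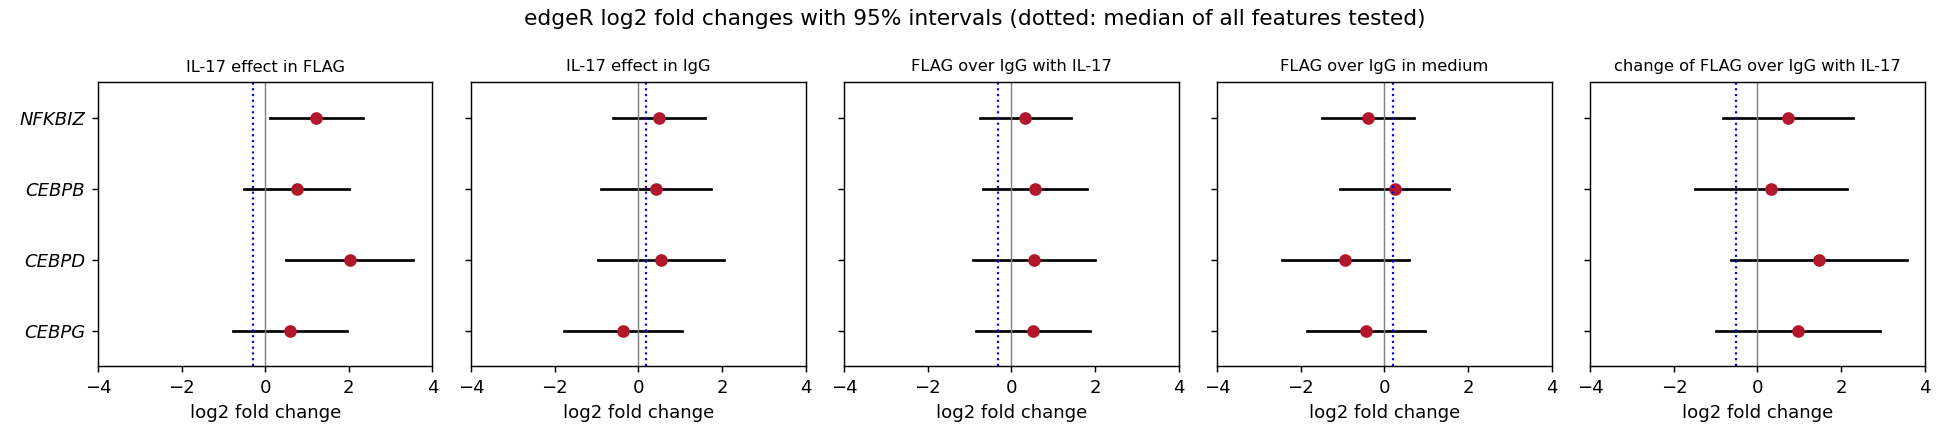
Log2 fold changes of NFKBIZ, CEBPB, CEBPD and CEBPG by edgeR (horizontal axes; points, with 95% intervals as lines) in 5 comparisons. Dotted lines are the median of all features tested, and grey lines mark 0. The intervals of NFKBIZ and CEBPD exclude 0 for the IL-17 effect in FLAG, before adjustment over all features, and all others include 0.

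Across the 12 libraries the 5 genes varied together to some degree. Pearson correlations of log2(CPM + 1) ran from 0.32 (CEBPD with CEBPA) to 0.78 (NFKBIZ with CEBPA). Spearman correlations ran from 0.077 (CEBPD with CEBPA) to 0.78 (NFKBIZ with CEBPB), and that of NFKBIZ with CEBPA was 0.61. CEBPA had 0 counts in FLAG medium replicate 1 and IgG medium replicates 2 and 3. The points of each correlation share library, depth and group, so the values are a description. Of 12000 features with a mean of at least 5 CPM, those most like NFKBIZ were ENSG00000168264.11 (Pearson r = 0.98, n = 12 libraries) and ENSG00000265735.2 (r = 0.95), which the files do not name. The first was at 68.9, 56.9 and 58.7 CPM in FLAG IL-17, against 14.7, 29.7 and 18.1 CPM in FLAG medium, and like NFKBIZ it was high in IgG medium replicate 1, at 53.0 CPM. Of the features searched, 17.2% correlated with NFKBIZ at over 0.5.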

How the data were processed

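RNA immunoprecipitation sequencing was measured in 12 libraries, mapped to 4 groups of 3 by sample title. The authors deposited estimated counts per Ensembl gene, of which 18.0% of values above 0 were not whole and all were rounded before testing. The authors also deposited a normalized table that holds TPM, since each of its columns has the same fixed total, although it is named for FPKM. The tools listed in the submitters' processing notes are RSEM 1.3.1, STAR 2.7.9, R 4.2.0 and DESeq2 1.36.0, with GRCh38; what each did, and any strand setting, is not given there. TPM rests on the lengths and on every other feature of a library, and TMM on most features being alike.

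Counts were filtered with filterByExpr (minimum count 10), leaving 24040 of 60708 features and all 5 genes, scaled by TMM and tested in 1 model of all 12 libraries with edgeR 4.0.16 (quasi-likelihood test, R 4.3.3), with Benjamini-Hochberg adjustment over all features. The common dispersion was 0.953. Standard errors are the log2 fold change over the root of F. The procedure was run on simulated data with a lower dispersion than here and the same composition in every library, so that run does not test it under these conditions. Alternatives were RLE, upper-quartile and no factors, other filters, DESeq2 1.42.0, limma 3.58.1 on log2 TPM with pseudocounts of 1 and 0.1, only the groups compared, a replicate block, and leaving out libraries.

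All 5 genes were named by rule, with the 2 features most correlated with NFKBIZ. The genes and lists were chosen with earlier results of these data known. Lists of NF-kappaB genes, bZIP partners, IL-17 targets and cell type markers were not tested, because 0 identifiers matched the reference table. Depth per library limits low genes: 3 counts are 0.169 CPM in the deepest library and 4.02 CPM in the shallowest.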

Additional observations from a re-analysis of the deposited data

How the results depend on the processing

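No alternative with all 12 libraries, and none of the 12 fits that left out a single library, called any of the 5 genes in any of the 6 comparisons; the count was 0 to 0 over those 12 fits. Leaving out the 4 libraries that stand apart called 2 genes for the IL-17 effect in FLAG, 2 for that in IgG and 1 for the average, beside 652, 1631 and 2268 of the 28872 features then tested, with fewer libraries and a single IgG medium library. Where a sign turned, the cause was not tested.

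The IL-17 effect in FLAG became, with log2(TPM + 1) and log2(TPM + 0.1), -0.52 and -0.55 for NFKBIZ, -0.46 and -0.69 for CEBPB, and -0.34 and -0.42 for CEBPG. That in IgG became -0.35 and -0.37 for NFKBIZ and -0.20 and -0.32 for CEBPB on the same scales, and -0.17 for CEBPD without the 4 libraries. The averaged IL-17 effect became -0.44 and -0.46 for NFKBIZ, -0.33 and -0.51 for CEBPB, and -0.44 and -0.69 for CEBPG on the TPM scales. For CEBPG this average was also -0.088 with RLE factors, -0.086 with library size only and with DESeq2, -0.16 with upper quartile, -0.056 with the filter of 50 counts in 3 libraries and -0.16 without the 4 libraries. FLAG over IgG in medium became 0.082 for NFKBIZ with library size only, 0.22 and 0.23 on the TPM scales and 0.74 without the 4 libraries, and -0.014 for CEBPB with upper quartile. The change with IL-17 became -0.17 and -0.18 for NFKBIZ on the TPM scales and -0.54 without the 4 libraries. For CEBPB that change was -0.023 with RLE, -0.26 with library size only, -0.12 with DESeq2, -0.26 and -0.37 on the TPM scales and -0.23 without the 4 libraries.

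Each fit that left out a library was filtered and scaled anew, so values also moved when a library outside the comparison was left out. Leaving out single libraries, the average for CEBPG ran from -0.11 to 0.27. FLAG over IgG in medium ran from -0.64 to 0.21 for NFKBIZ, -0.011 to 0.61 for CEBPB, -1.33 to 0.40 for CEBPD and -0.77 to 0.14 for CEBPG, and the change for CEBPB ran from -0.066 to 0.57. The IL-17 effect in FLAG ran from 0.73 to 1.296 for NFKBIZ, from 1.57 to 2.49 for CEBPD, from 0.25 to 0.83 for CEBPB and from 0.081 to 0.87 for CEBPG. The average ran from 0.54 to 1.19 for NFKBIZ, 0.22 to 0.82 for CEBPB and 1.08 to 1.92 for CEBPD, and the change from 0.21 to 0.98 for NFKBIZ, 0.14 to 1.86 for CEBPD and 0.39 to 1.29 for CEBPG.

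The background of called features was 54 for the IL-17 effect in FLAG (5 to 1029 over the alternatives, the highest by DESeq2), 3 in IgG (2 to 1631, the highest without the 4 libraries, as for the average, medium and the change), 95 for the average (32 to 2268), 0 for FLAG over IgG with IL-17 (0 to 9), 0 in medium (0 to 1237) and 0 for the change (0 to 667). With the replicate number as a block the called features were 136 in FLAG, 33 in IgG and 187 for the average. The replicate block kept every sign of the 4 genes with fold changes and called none, with a log2 fold change in FLAG of 1.197 for NFKBIZ and 2.26 for CEBPD. The labels do not say that a replicate number marks a shared culture or day, and the libraries show a partial likeness by number: 10 of 18 same-numbered pairs correlated at over 0.1 (-0.16 to 0.51), against 9 of 36 others, and the best match had the same number in 19 of 36 cases. All 6 pairs of replicate 3 were over 0.1. The main fit took no pairs because the labels state none, and these values do not settle whether the numbers mark pairs.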

Other observations

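The apparent length of NFKBIZ (estimated count over TPM), set against that of CEBPD in the same library, was 1.13 in FLAG medium replicate 1 and 0.993 in IgG medium replicate 1. It was 1.63 to 2.12 in the other 10 libraries. In those 2 libraries NFKBIZ was thus short relative to CEBPD, and a shorter length gives a higher TPM for a given count. They are also the 2 shallowest libraries, with 446 and 172 NFKBIZ counts. How the division between its transcripts was made was not tested.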
